A study of Mus musculus with 12 samples.

Results

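Nfib peaks were examined at the genes of the nuclear factor I (NFI) family, namely Nfib itself and its paralogs Nfia, Nfix and Nfic. The members are the deposited peaks whose start lies in a window set around each gene on the mouse build mm9. The windows ran from 81700000 to 82400000 on chromosome 4 for Nfib, from 97200000 to 98000000 on chromosome 4 for Nfia, from 87100000 to 87450000 on chromosome 8 for Nfix and from 80750000 to 81050000 on chromosome 10 for Nfic. They held 105 of the 35025 peaks of the series, of which 83 came from the line KP1 and 22 from the line KP22. The whole lists held 24905 KP1 and 10120 KP22 peaks, or 2.46 KP1 peaks for each KP22 peak. Raw counts of the lines below are to be read against that ratio. All lines are tumour-derived mouse small cell lung cancer lines with the genotype Trp53-/-;Rb1-/-, grown as floating spheres, and by the labels Nfib is high in KP1 and 16T and low in KP22. Each of the 3 lines had 2 input libraries and 2 libraries pulled down with an Nfib antibody, and KP1 and KP22 each had 1 peak list. No interval was listed in the deposited 16T file, so that line took part only in the authors' table of merged regions. KP22 is the only low line, so a line effect and an effect of the Nfib level cannot be told apart. The series holds no expression values, so neither the Nfib level nor the cell type could be checked against marker genes here.

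NFI proteins are transcription factors that bind DNA as dimers through a conserved N-terminal domain, and the 4 vertebrate members recognise the same palindromic site. Because the members share this site, NFI genes can carry binding sites for their own products. Nfib is required for lung maturation and is a recurrent target of gene amplification in mouse small cell lung cancer. Nfia is known for its part in glial differentiation, Nfix in muscle and neural stem cells, and Nfic in tooth root formation.

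The palindromic site was searched in the RefSeq promoters of the family on the build GRCm38.p6, each from 250 bases before to 50 bases after a start, as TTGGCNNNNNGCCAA. Its single arm TTGGC was searched on both strands, so that GCCAA on the printed strand counts as well, and each palindromic site holds the arm on either side. The promoter table matched 3 of the 4 genes, with 1 start for Nfia, 4 for Nfix and 1 for Nfic. It held no promoter of Nfib, so that of Nfib was not searched. The palindromic site was in 0 of these 6 promoters and in 12 of all 32851 promoters (0.0365%). The arm was in 3 of the 6, all of them starts of Nfix, against 46.7% of all promoters. The matches are printed because they are the only matches in the 6 promoters searched, with capitals marking the arm.
Nfix, chr8:84775986-84776015, minus strand, match 175 bases before the start: ggatcttttgttTTGGCtcaccccaggcgc
Nfix, chr8:84773365-84773394, minus strand, match 28 bases after the start: cagaatcaggcgTTGGCtttgccgggtgct
Nfix, chr8:84772863-84772892, minus strand, matches on both sides of the start: cttctgggggcaGCCAAacaTTGGCcagtc
In the last of these, the arms are inverted and nearer to each other, so they do not form the palindromic site. The Nfia promoter, which held no arm, reads as follows over its 250 bases before the start (chr4:97581693-97581942, plus strand).
Nfia: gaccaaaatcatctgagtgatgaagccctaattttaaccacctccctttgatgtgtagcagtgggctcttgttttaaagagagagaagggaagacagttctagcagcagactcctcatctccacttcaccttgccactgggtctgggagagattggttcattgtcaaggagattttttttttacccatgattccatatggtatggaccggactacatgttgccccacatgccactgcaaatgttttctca
These positions are on GRCm38.p6 and cannot be set beside the mm9 positions of the peaks below. Whether a peak covers a start was therefore not analysed here.

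Nfib, the gene of the precipitated factor, had the most KP1 peaks of the 4 loci, whereas Nfic had the most KP22 peaks. Its window held 42 KP1 peaks and 7 KP22 peaks. In KP1 this was 6.0 peaks per 100 kb, against 0.944 over the main chromosomes, and in KP22 it was 1.0 against 0.383. Of 3777 windows of 700 kb laid end to end over the main chromosomes, 11 (0.291%) held at least 42 KP1 peaks, and the median window held 4. The KP22 count was less unusual for its list, since 386 windows (10.2%) held at least 7 KP22 peaks and the median was 2. Nfib made up 0.169% of the KP1 list (0.122 to 0.228, exact Clopper-Pearson 95% interval) and 0.0692% of the KP22 list (0.0278 to 0.142). The KP1 share was 2.44 times the KP22 share (1.09 to 6.43, exact binomial interval). This interval reached down to 0.973 with the window narrowed by 50 kb on each side and to 0.886 with peaks closer than 1 kb joined. With peaks of at least 200 bases the ratio was 3.74 (1.34 to 14.5). Counting error alone is in these intervals, and peaks are taken as independent of each other. Each line had 1 list, so no test between the lines was possible.

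The KP1 peaks of Nfib were not spread evenly over the window, as the map of the 4 windows shows. In the window, 16 peaks fell in the 100 kb from 82.1 to 82.2 Mb and 9 in the 100 kb before it. Only 9 of 26370 bins of 100 kb over the main chromosomes held at least 16 KP1 peaks. The densest part was a group of 10 KP1 peaks from 82150201 to 82166137, with less than 5 kb between neighbours. It was the second largest of 19876 such groups in KP1, single peaks included, after a group of 39 peaks on chromosome 9 (3000036 to 3038281). No filter for repeat regions was applied to the lists here, so whether the chromosome 9 group is an artefact was not tested. Within the group of 10 at Nfib, 5 peaks lay between 82150201 and 82153176, the widest of them 717 bases wide (82152046 to 82152762). KP22 had 1 peak in this group, from 82159365 to 82159551, which overlapped the KP1 peak from 82158961 to 82159486 by 122 bases. The first KP1 peak of the window lay at 81704001 to 81704210 and the last at 82399063 to 82399342.

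**Figure D1:**
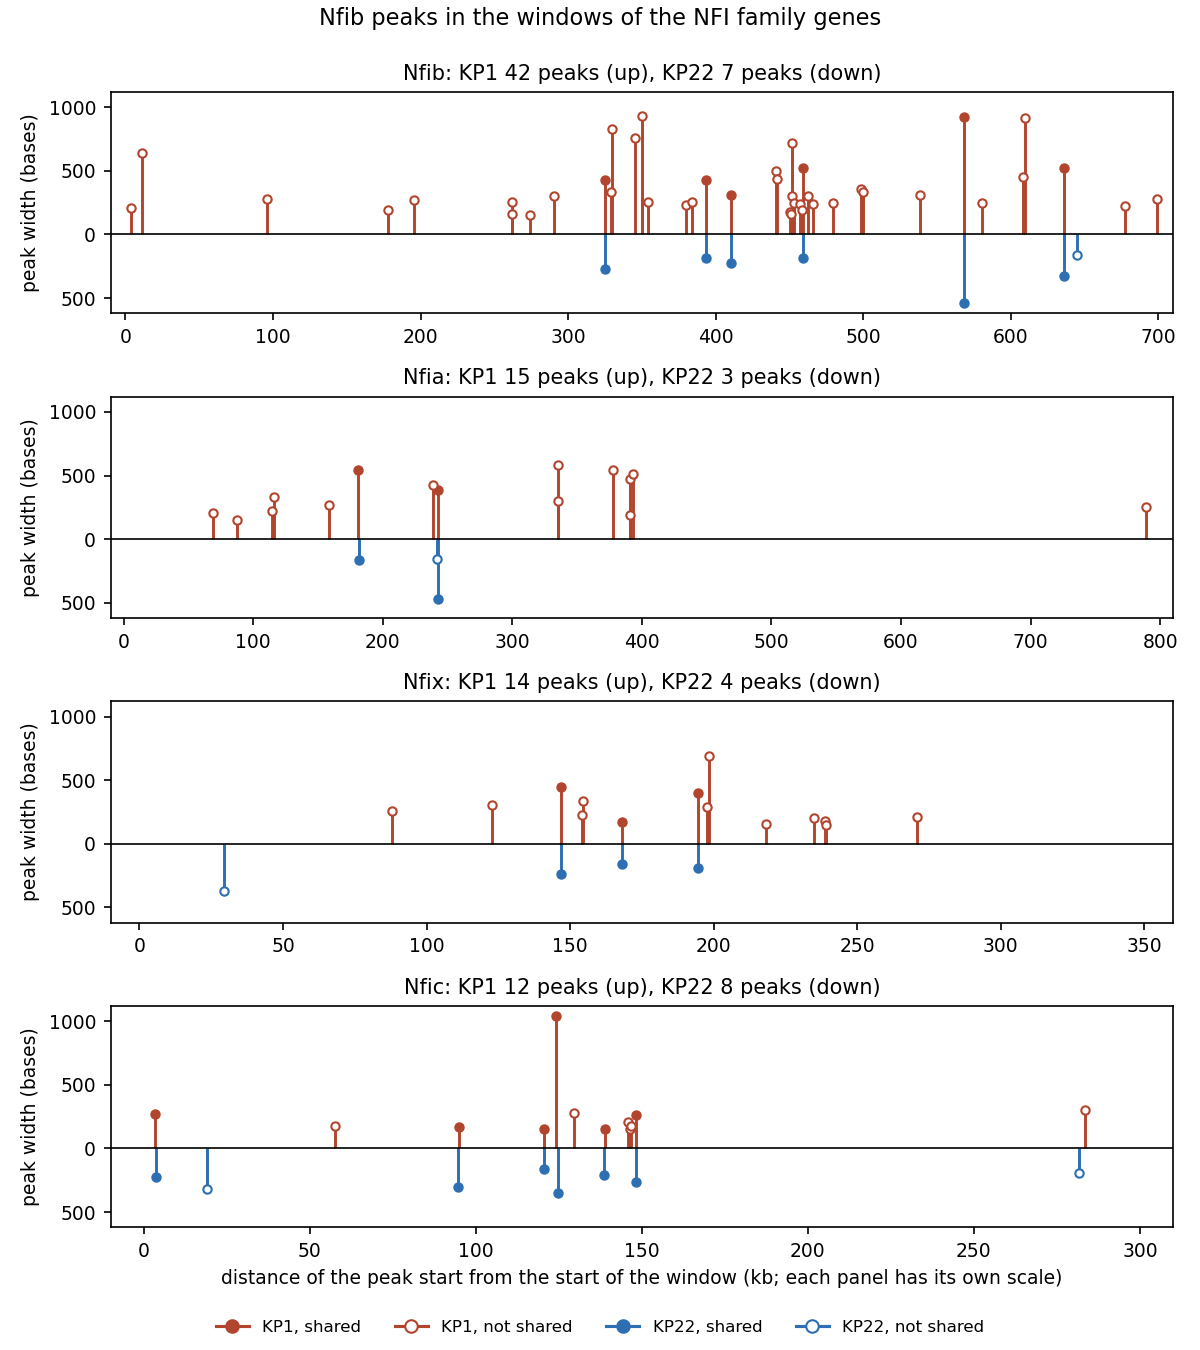
Peaks of KP1 (upward, red) and KP22 (downward, blue) in the 4 windows, by distance from the start of the window in kb and by width in bases; filled circles are peaks that overlap a peak of the other line by at least 1 base, open circles are those that do not. Nfib has 42 KP1 peaks against 7 in KP22, whereas Nfic has 12 against 8. The KP1 list is 2.46 times as long as the KP22 list.

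Most KP22 peaks at Nfib lay at KP1 peaks. Of the 7 KP22 peaks, 6 shared 1 base or more with a KP1 peak (85.7%, 42.1 to 99.6), against 66.1% of the whole KP22 list. In the other direction, 6 of the 42 KP1 peaks overlapped a KP22 peak (14.3%, 5.43 to 28.5), against 26.8% of the whole KP1 list. Both intervals include the share of the whole list. The remaining 36 KP1 peaks had no KP22 peak, and with 7 KP22 peaks in the window few of the 42 could have one. The widest shared site was a KP1 peak of 925 bases from 82268138 to 82269062, which held the whole KP22 peak of 536 bases from 82268200 to 82268735. The next by KP22 width was a KP22 peak of 328 bases from 82336168 to 82336495 inside a KP1 peak of 522 bases from 82336051 to 82336572. The KP22 peak from 82025053 to 82025327 (275 bases) and the one from 82093171 to 82093358 (188 bases) likewise lay inside KP1 peaks, of 431 and 432 bases. The KP22 peak from 82110286 to 82110512 overlapped the KP1 peak from 82110308 to 82110614 by 205 bases. The single KP22 peak without a KP1 partner, from 82345086 to 82345245, had 160 bases, 1 more than the narrowest peak of that list. The shared KP1 peaks had a median width of 477 bases and the unshared ones 275.5, whereas over the whole list these were 258 and 221.

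KP1 peaks at Nfib were wide for their list. Their median width was 300 bases (quartiles 243.75 and 447) against 232 for all KP1 peaks, and 10 of 42 (23.8%) had at least 500 bases, against 6.77% of the list. The widest KP1 peaks of the window had 932 bases (82050036 to 82050967), 925 bases (the shared site above), 913 bases (82309739 to 82310651) and 827 bases (82029937 to 82030763). Only the 925-base peak of these 4 was shared. In KP22 the median width at Nfib was 227 bases, the same as over its whole list, and 1 of 7 peaks had at least 500 bases, against 3.46% of the list. Neither list gives a score, so width is the only measure of a single peak here.

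Between 80 and 85 Mb of chromosome 4, the setting of Nfib, there were 125 peaks in KP1 and 18 in KP22. The Nfib window is 14.0% of its length and held 33.6% of its KP1 peaks and 38.9% of its KP22 peaks. The excess of KP1 was not limited to the window. Without it, 83 KP1 and 11 KP22 peaks remained, and the ratio of shares was 3.07 (1.63 to 6.38). Before the window, the stretch held 23 KP1 and 2 KP22 peaks (4.67, 1.15 to 40.9), and after it 60 and 9 (2.71, 1.34 to 6.21). The 5 Mb before the stretch held 16 and 6 peaks (1.08, 0.403 to 3.38) and the 5 Mb after it 41 and 10 (1.67, 0.821 to 3.73). The whole of chromosome 4 stood at 1.02 (0.938 to 1.1). The stretch was pointed out in earlier results of these data, so its ratio is a description. Over the whole stretch, KP1 peaks had a median width of 282 bases, against 232 in the KP1 list. At least 500 bases were reached by 23 of the 125 (18.4%), against 6.77%, and 12.8% overlapped a KP22 peak, against 26.8%. These values include the Nfib window, which held 42 of the 125 KP1 peaks and 10 of the 23 wide ones. Wide KP1 peaks were thus not limited to that window. With 18 KP22 peaks against 125 KP1 peaks, few KP1 peaks could have a KP22 partner. The low share is therefore not a trait separate from the counts, since 16 of the 18 KP22 peaks were shared.

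Within the stretch, KP1 peaks formed a long occupied block, and the plot along the stretch shows its edges. Each of the 31 neighbouring bins of 100 kb from 81.0 to 84.1 Mb held at least 1 KP1 peak. This block held 112 KP1 and 14 KP22 peaks (ratio of shares 3.25, 1.86 to 6.14), and its limits were chosen from the KP1 list itself. The 1 Mb from 82 to 83 Mb held 63 KP1 peaks, a number reached in 4 of 2646 bins of 1 Mb (0.151%), where the median bin held 7. From 81 to 82 Mb there were 21 KP1 peaks and 1 KP22 peak, and from 83 to 84 Mb 27 and 4. From 84 to 85 Mb there were 3 KP1 and 4 KP22 peaks, so the KP1 excess was not seen in that last part. It was seen again directly past the stretch, where KP1 had 15 peaks before 86 Mb and KP22 had 0. The lower limit of the ratio of shares there was 1.46. In each later bin of 1 Mb up to 90 Mb, the interval of the ratio includes 1. Outside the Nfib window, the stretch was fullest at 82.5 to 82.6 Mb, with 10 KP1 and 0 KP22 peaks in 100 kb. Its next fullest bin of 100 kb lay at 82.9 to 83.0 Mb, with 9 and 1. KP22 peaks occurred in 14 of the 50 bins of 100 kb and KP1 peaks in 38, and 1 bin held KP22 peaks alone. Of all 26370 bins of 100 kb over the main chromosomes, 26.2% held a KP22 peak and 43.1% a KP1 peak. The KP22 number was thus near that of its list, whereas the KP1 number was above it. In the RefSeq gene order of GRCm38.p6, Nfib lies between Mpdz and Zdhhc21, followed on that side by Cer1.

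**Figure D2:**
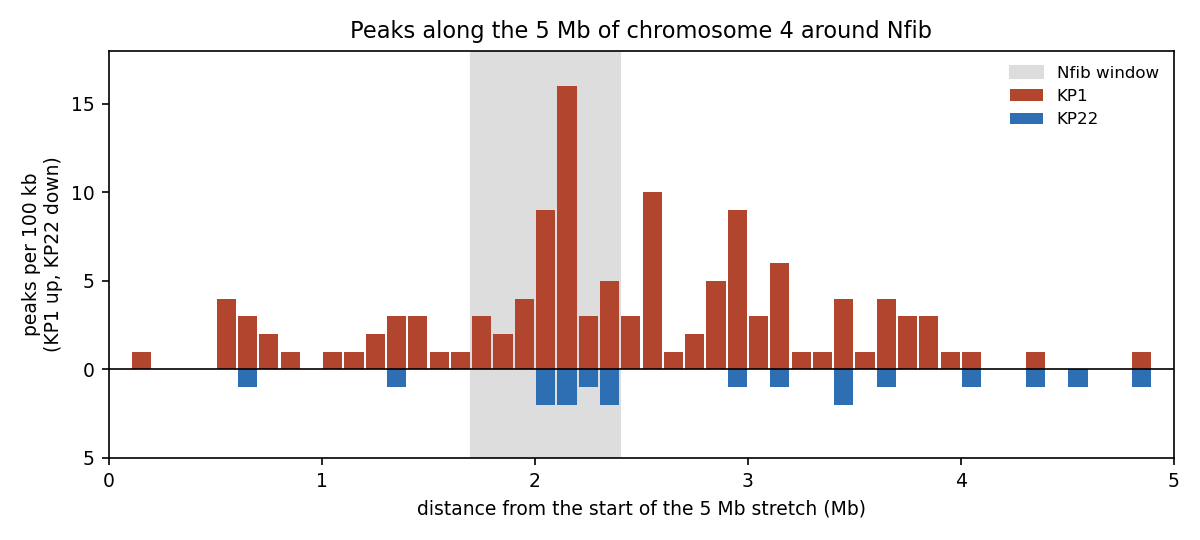
Peaks per 100 kb along the 5 Mb of chromosome 4 around Nfib, by distance from the start of the stretch in Mb, with KP1 upward and KP22 downward; the grey band is the Nfib window. KP1 reaches 16 peaks in 1 bin inside the window, and its unbroken run of 31 occupied bins extends to both sides of it.

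Nfia, on the same chromosome, had fewer peaks than Nfib in a longer window. It held 15 KP1 peaks and 3 KP22 peaks, which is 1.88 and 0.375 peaks per 100 kb. Of 3306 windows of 800 kb, 546 (16.5%) held at least 15 KP1 peaks and 1441 (43.6%) held at least 3 KP22 peaks, so neither count was rare in its list. The ratio of shares was 2.03 (0.575 to 10.9), and its interval includes 1. With peaks of at least 200 bases it was 5.40 (0.811 to 229.4), with 1 KP22 peak left. Of the KP1 peaks, 14 lay between 97269358 and 97594006, and the last, from 97988984 to 97989238, followed after 395.0 kb without a peak. KP1 peaks at Nfia were wide, with a median of 330 bases against 232 in the list. At least 500 bases were reached by 4 of 15 (26.7%), against 6.77% of the list, which is a small count. The widest had 583 bases (97535608 to 97536190), followed by 545 bases (97577396 to 97577940), 540 bases (97381195 to 97381734) and 509 bases (97593498 to 97594006). The last of these closed a group of 3 KP1 peaks from 97590565 to 97594006. At least 3 peaks were held by 915 of the 19876 KP1 groups (4.60%), single peaks included.

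The KP22 peaks of Nfia lay at 2 places. One, from 97381467 to 97381632 (166 bases), lay inside the KP1 peak of 540 bases. Another, from 97442862 to 97443331 (470 bases), overlapped the KP1 peak from 97442981 to 97443369 by 351 bases and was the wider of the pair. The third, from 97442240 to 97442398, had the minimum width of 159 bases and no KP1 partner, and lay beside the second. Thus 2 of 3 KP22 peaks and 2 of 15 KP1 peaks (13.3%, 1.66 to 40.5) were shared, against 66.1% and 26.8% of the whole lists. The first KP1 peak of the window ran from 97269358 to 97269566.

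Nfix held 14 KP1 and 4 KP22 peaks in 350 kb, or 4.0 and 1.14 per 100 kb. Of 7541 windows of that length, 196 (2.60%) held at least 14 KP1 peaks and 822 (10.9%) at least 4 KP22 peaks. The ratio of shares was 1.42 (0.447 to 5.93), and its interval includes 1. All KP1 peaks lay between 87187829 and 87371166. They included 2 groups of 3 peaks with less than 5 kb between neighbours, from 87294451 to 87298929 and from 87334881 to 87339243. At least 3 peaks were held by 4.60% of the KP1 groups, and each of the 4 loci had such a group. The widest KP1 peak had 692 bases (87298238 to 87298929) and no KP22 partner. The next had 444 bases (87246689 to 87247132) and held the KP22 peak of 240 bases from 87246807 to 87247046. The third had 401 bases (87294451 to 87294851) and held the KP22 peak of 193 bases from 87294468 to 87294660. The fourth had 338 bases (87254628 to 87254965). The first KP1 peak of the window ran from 87187829 to 87188084 and the last from 87370960 to 87371166. A further shared site was narrow in both lines, with 175 bases in KP1 (87268027 to 87268201) and 159 bases in KP22 (87268024 to 87268182). The remaining KP22 peak, from 87129616 to 87129989 (374 bases), was the widest KP22 peak of the window and had no KP1 partner. In all, 3 of 4 KP22 peaks and 3 of 14 KP1 peaks (21.4%, 4.66 to 50.8) were shared, near the 66.1% and 26.8% of the whole lists. In the gene order of GRCm38.p6, Nfix lies between Lyl1 and Dand5, and peaks of its window may belong to such neighbours, since the peaks were not tied to genes.

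Nfic held 12 KP1 and 8 KP22 peaks in 300 kb. Its raw counts were the most even of the 4 loci, although the KP1 list is 2.46 times as long. In KP22 it was the fullest of the 4 windows, at 2.67 peaks per 100 kb, and 74 of 8797 windows of that length (0.841%) held at least 8 KP22 peaks. In KP1, 263 (2.99%) held at least 12. The ratio of shares was 0.610 (0.229 to 1.72), the lowest of the 4 loci, and its interval includes 1 and overlaps that of each other locus. The difference between the loci was not tested. Peaks gathered between 80870370 and 80898529, where KP1 had a group of 3 peaks from 80870370 to 80879904 and a group of 4 from 80895717 to 80898529. At least 4 peaks were held by 264 of the 19876 KP1 groups (1.33%).

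Nfic also had the highest share of KP1 peaks with a KP22 partner, 6 of 12 (50%, 21.1 to 78.9), and 6 of its 8 KP22 peaks (75%, 34.9 to 96.8) were shared. Both intervals include the shares of the whole lists, 26.8% and 66.1%. The widest peak of all 4 windows was the KP1 peak from 80874193 to 80875232, with 1040 bases, a width reached by 0.237% of the KP1 list. It held the widest KP22 peak of the window, of 351 bases, from 80874677 to 80875027. The next KP1 peaks by width were 306 bases (81033548 to 81033853, the last of the window), 275 bases (80879630 to 80879904) and 272 bases (80753463 to 80753734, the first). Without the 1040-base peak, the KP1 peaks of Nfic were narrow, and the median of all 12 was 192 bases against 232 in the list. At 3 shared sites of Nfic the KP22 peak was the wider one. These were 303 against 168 bases (KP22 from 80844732 to 80845034), 212 against 150 bases (KP22 from 80888719 to 80888930) and 159 against 150 bases (KP22 from 80870392 to 80870550). The narrowest peaks had 150 bases in the KP1 list and 159 in the KP22 list. The KP1 peaks of 150 bases and the KP22 peak of 159 bases were thus at the minimum of their list. The closest pair of peaks had 262 bases in KP1 (80898268 to 80898529) and 260 bases in KP22 (80898267 to 80898526), with centres 2.0 bases apart. The first KP22 peak, from 80753534 to 80753759 (226 bases), overlapped the first KP1 peak by 201 bases. The KP22 peaks from 80768953 to 80769270 (318 bases) and from 81031618 to 81031809 (192 bases) had no KP1 partner. In the gene order of GRCm38.p6, Nfic lies between Smim24 and Celf5.

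Over all 4 loci, the 83 KP1 and 22 KP22 peaks gave a ratio of shares of 1.53 (0.949 to 2.58), and its interval includes 1. The plot of the ratios shows that Nfib was the only locus of the 4 whose interval lay above 1 with the windows as given. Of the 83 KP1 peaks, 17 (20.5%) were shared, against 26.8% of the list, and so were 17 of the 22 KP22 peaks (77.3%), against 66.1%. Both shares were near those of the whole lists. Shared KP1 peaks had a median width of 401 bases and unshared ones 262. At least 500 bases were reached by 16 of 83 KP1 peaks (19.3%), against 6.77% of the list. Of these 16 peaks, 14 lay at the 2 loci of chromosome 4, which held 42 and 15 of the 83.

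**Figure D3:**
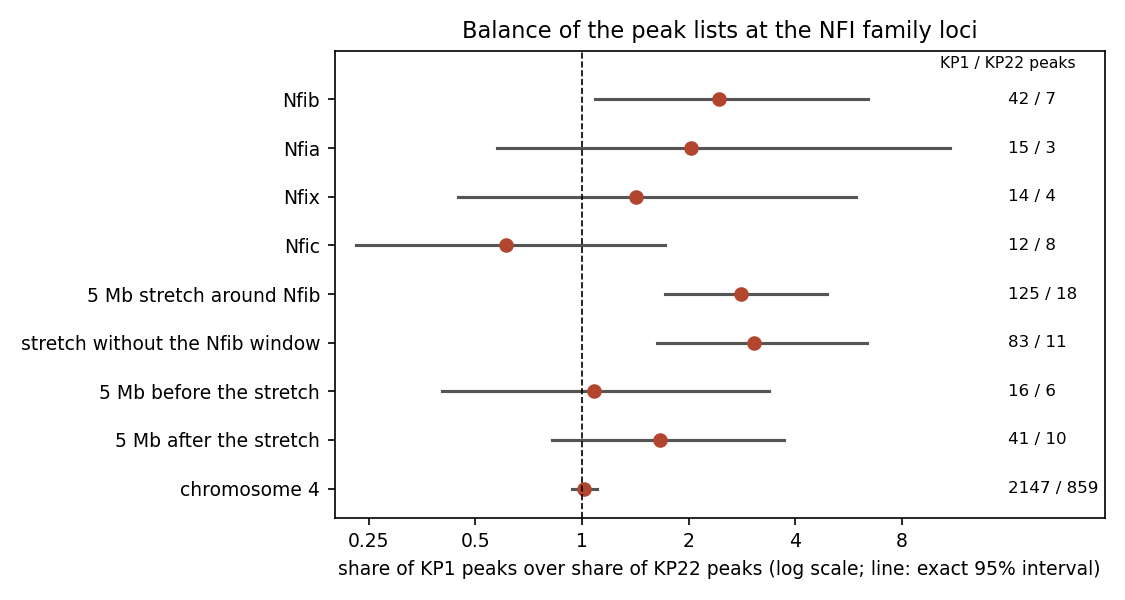
Share of the KP1 list divided by the share of the KP22 list (log scale) at the 4 loci, in the 5 Mb around Nfib with and without the Nfib window, in the 5 Mb on either side and on chromosome 4; lines are exact 95% binomial intervals and the numbers at the right are peaks in KP1 and KP22. Nfib lies at 2.44, the stretch at 2.82 and chromosome 4 at 1.02.

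The authors' deposited table of merged regions gives fold changes of the high lines over the low line, with a number and no position for each region. The placement assumes that the numbers follow the order of positions, with chromosome names sorted as text (chromosome 10 before chromosome 4). If so, the 127 intervals that the peak lists gave from 80 to 85 Mb when joined correspond by scaled rank to the regions numbered 22054 to 22209. Another order of the chromosomes would put the stretch at other numbers and was not tried. The joined lists hold 28281 intervals against 34728 regions in the authors' deposited table, so this placement is approximate and no region is tied to a peak. Of the 156 regions so placed, the authors' deposited table called 134 higher and 1 lower at the adjusted p threshold of 0.05. Their median log2 fold change was 3.31 by the authors' deposited table. With the placement shifted by 100 later numbers, 72 were called higher and the median was 1.47 in the authors' deposited table, and with 50 later numbers 101 were. Over the whole of the authors' deposited table, 34.0% of the tested regions were called higher and 3.54% lower, and the median log2 fold change was 1.06. The 53 regions placed at the Nfib window had quartiles of the log2 fold change at 2.91 and 4.20 around a median of 3.68 in the authors' deposited table, and 51 were called higher and 0 lower (0 also at an unadjusted p under 0.05), with all 53 above 0. At placements shifted by 50 numbers either way, 47 of 53 were called higher in the authors' deposited table. Shifted by 100 numbers, 26 (earlier numbers) and 19 (later numbers) were called higher in the authors' deposited table, so the values of the Nfib window hold only if the placement is off by less than that. The windows of Nfia, Nfix and Nfic, which hold fewer peaks, were not placed, so the paralogs cannot be compared in this way.

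The high values formed a block in the numbering, as the plot of the merged regions shows. In bins of 20 regions, 7 neighbouring bins, numbered 22041 to 22180, had median log2 fold changes from 3.21 to 3.96 in the authors' deposited table. The bin before the block stood at 1.72 and the bin after it at 1.62, also in the authors' deposited table. All but 1 of the 140 regions of the block had a log2 fold change above 0 in the authors' deposited table, and 130 were called higher and 0 lower (0 also at an unadjusted p under 0.05). The limits of this block were chosen from the fold changes, as bins with a median of at least 3, so these counts and the steps at its limits are a description. The median base mean of the block was 43.7 normalised reads against 13.8 over the whole table, in the authors' deposited table. Regions with few and with many reads were mostly called higher. The 70 regions below its median base mean had a median log2 fold change of 3.30 (61 called higher), and the 70 others had 3.86 (69 called higher) in the authors' deposited table. The highest base mean of the block was 708.3, at nfib_peak_22073, whose log2 fold change was 5.12 with a standard error of 0.24 in the authors' deposited table. The lowest value belonged to nfib_peak_22152, at -0.68 with a standard error of 0.73 and an adjusted p of 0.474 by the authors' deposited table. Libraries served as the replicates of these tests, and the labels do not say whether they came from separate cultures. Values per library and values of the inputs were not used here. More copies of the DNA of this stretch in a high line and more Nfib bound per copy therefore cannot be told apart.

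**Figure D4:**
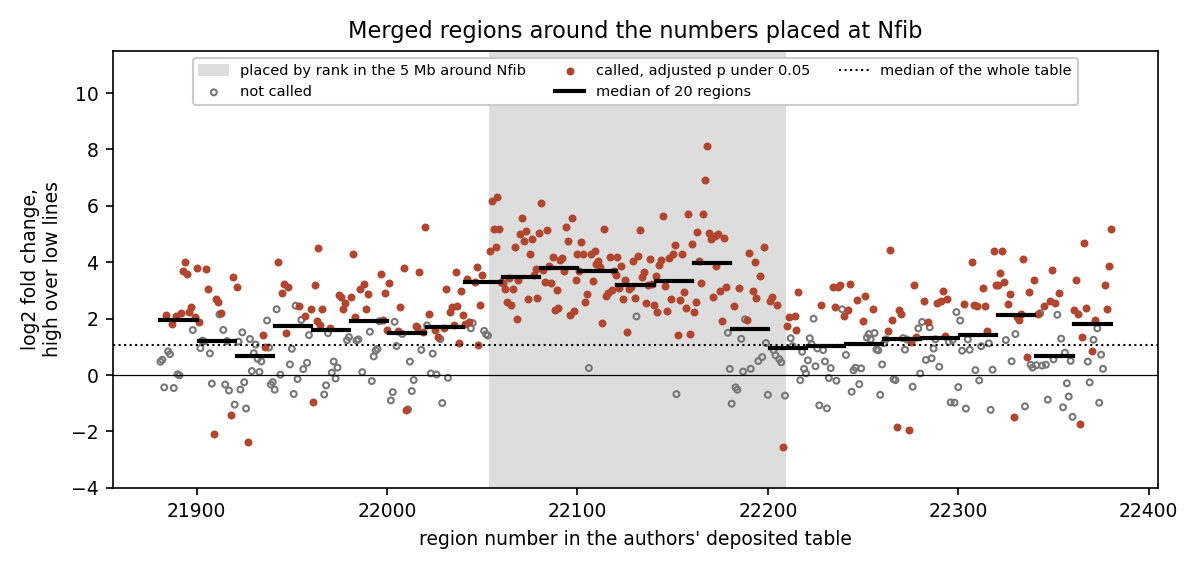
Log2 fold change of the high over the low lines by region number in the authors' deposited table, around the numbers placed by rank in the 5 Mb around Nfib (grey band); filled points are regions called at an adjusted p under 0.05, black bars are medians of 20 regions and the dotted line is the median of the whole table at 1.06. The 7 bins from 22041 to 22180 lie between 3.21 and 3.96, with 1.72 and 1.62 in the bins beside them.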

How the data were processed

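Chromatin immunoprecipitation with an Nfib antibody was sequenced in the lines 16T, KP1 and KP22, with 12 libraries in all, grouped by the labels. The submitters' processing notes name Bowtie2, MACS2, DESeq2 and DESeq, and the build mm9, with no version. Whether libraries were pooled for peak calling is not stated in these sources. The deposited lists give a start and an end per peak and no score. In the authors' deposited table the base mean is a signal (mean read counts over size factors), fold changes with their standard errors are log2 values, the test statistics are a score per region (Wald statistics), and p-values come with adjusted p-values, per the file headers. Without reads per library, the depth behind a peak is unknown, and a deeper library would give more and wider peaks.

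A peak belonged to a locus when its start in the list lay in the window. Positions are printed counting from 1. Peaks were shared when they overlapped by at least 1 base, and wide at 500 bases or more. The 95% intervals are exact, by Clopper-Pearson for a share and, for a ratio of shares, by the binomial split of KP1 and KP22 peaks. Windows of equal length were laid over chromosomes 1 to 19 and X up to the last peak. No adjustment was made for the number of loci. Overlaps and intervals were tested on simulated data with independent peaks, so the effect of clustered peaks on the intervals was not tested. Python 3.11.15 with pandas 2.3.3, numpy 2.4.6, scipy 1.17.1 and matplotlib 3.10.9 was used. The named peaks of a list were all of them where it had at most 6 at a locus, and otherwise the 4 widest, the first and the last; beyond this, all KP22 peaks without a KP1 partner were named, and the shared peaks, the groups of peaks, the peaks at the edges of such groups and the named regions were chosen after their values were seen. The members, windows and lists were chosen with earlier results of these data known. Alternatives were wider and narrower windows, other overlap rules, a minimum width, joined peaks and, chosen after seeing the data, shifts of the placement by rank.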

Additional observations from a re-analysis of the deposited data

How the results depend on the processing

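Of 95 values under the alternatives, 85 stayed inside the main interval or quartiles, or within a factor of 1.5 of the main count, and 10 did not. The intervals of the ratios were wide, so a ratio could change much and still stay inside. With peaks of at least 200 bases, KP22 peaks fell to 4 at Nfib, 1 at Nfia and 2 at Nfix, and KP1 peaks at Nfic to 6, by construction. With the window narrowed by 50 kb on each side, Nfic had 5 KP22 peaks. The median width of the shared KP1 peaks alone was 477 bases at Nfib and 401 at Nfix. With the placement by rank shifted by 100 numbers either way, the regions called higher at Nfib were 26 and 19, and those of the stretch 72 with the later numbers; the cause was not tested. The ratio of shares at Nfib ran from 2.04 (joined peaks) to 3.74 (at least 200 bases), at Nfia from 1.90 (narrowed window) to 5.40 (at least 200 bases), at Nfix from 1.19 to 2.08 and at Nfic from 0.415 to 0.813. No paired analysis was possible because the files used hold no value per library, and leaving out a replicate was not run for the same reason. The small counts at Nfia, Nfix and Nfic limit their ratios of shares, whose intervals include 1 under each alternative run, and that of Nfib includes 1 in the narrowed window and with joined peaks.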
